A study of Mus musculus with 12 samples.

Results

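The genes described here are the Wnt ligands, their Frizzled receptors and Lrp coreceptors, the secreted antagonists of the pathway, and 3 genes read downstream of it, measured by RNA-seq in mouse hearts after acute myocardial infarction (AMI). Members were chosen by symbol alone: a name that starts with Wnt, Fzd, Sfrp or Dkk followed by a number, or Frzb, Wif1, Lrp5, Lrp6, Axin2, Lef1 or Tcf7. This rule found 44 of the 53801 genes in the tables, namely 19 Wnt ligands, 10 Frizzleds, 5 secreted Frizzled-related proteins (sFRPs), 4 Dickkopfs, Wif1, 2 coreceptors, and Axin2, Lef1 and Tcf7. The rule used no measured value, though it was set with earlier results of these data known.

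The series holds 12 libraries of total RNA from whole hearts of adult male C57BL/6N mice, for which the labels name no engineered allele. The 4 sham hearts had no infarct, and the 4 day 1 AMI and 4 day 7 AMI hearts were taken 1 and 7 days after permanent ligation of the left anterior descending coronary artery. The day on which sham hearts were taken is not given in the sources used here. Nothing in the labels says how much of each whole-heart sample was infarct, border or remote muscle, so each value is an average over these. Total counts ran from 23204551 to 32166517 per library. Cardiomyocyte markers were abundant in every group, with a summed level of 74906 ± 4861 TPM (a depth- and length-scaled transcript level, SD, n = 4) in sham, 63342 ± 3650 at day 1 and 58221 ± 3218 at day 7.

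Wnt proteins are secreted lipid-modified ligands that bind Frizzled receptors on the cell surface. With an Lrp5 or Lrp6 coreceptor they stabilize β-catenin, which acts with Tcf and Lef factors in the nucleus, whereas other ligand and receptor pairs act through cell polarity or calcium pathways. sFRPs and Wif1 bind the ligands outside the cell, and Dickkopf proteins mostly act on the coreceptors. In the injured heart the pathway is known for its links to fibroblasts and scar formation.

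Of the 44 members, 30 had enough counts to be tested among 15306 genes, and a member was said to rise or fall where it changed by a fold change (FC) of 2 or greater at an adjusted p below 0.05 (edgeR quasi-likelihood test, Benjamini-Hochberg adjustment over all genes tested). On day 1 AMI against sham, 1 of 30 members rose and 0 fell, and a further 2 higher and 8 lower members passed the p threshold with a smaller change. Over all genes tested 7.79% rose and 2.98% fell in this comparison, and a further 14.2% were higher and 16.9% lower with such a smaller change. DESeq2 on the same 12 libraries called 1 member lower on day 1, Wnt10b, beside 534 of 26544 genes with counts. On day 7 AMI against sham, 9 of 30 rose and 1 fell, beside 15.3% and 5.88% of all genes tested. On day 7 against day 1, 9 of 30 rose and 1 fell, beside 8.55% and 2.69% of all genes tested. The median log2 FC of the 30 members was -0.15, 0.29 and 0.38 in these comparisons, and that of all genes tested was -0.01, 0.03 and 0.02. The comparisons share their samples with each other, so their counts are not independent. The plot of fold changes shows all 30 members together.

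**Figure D1:**
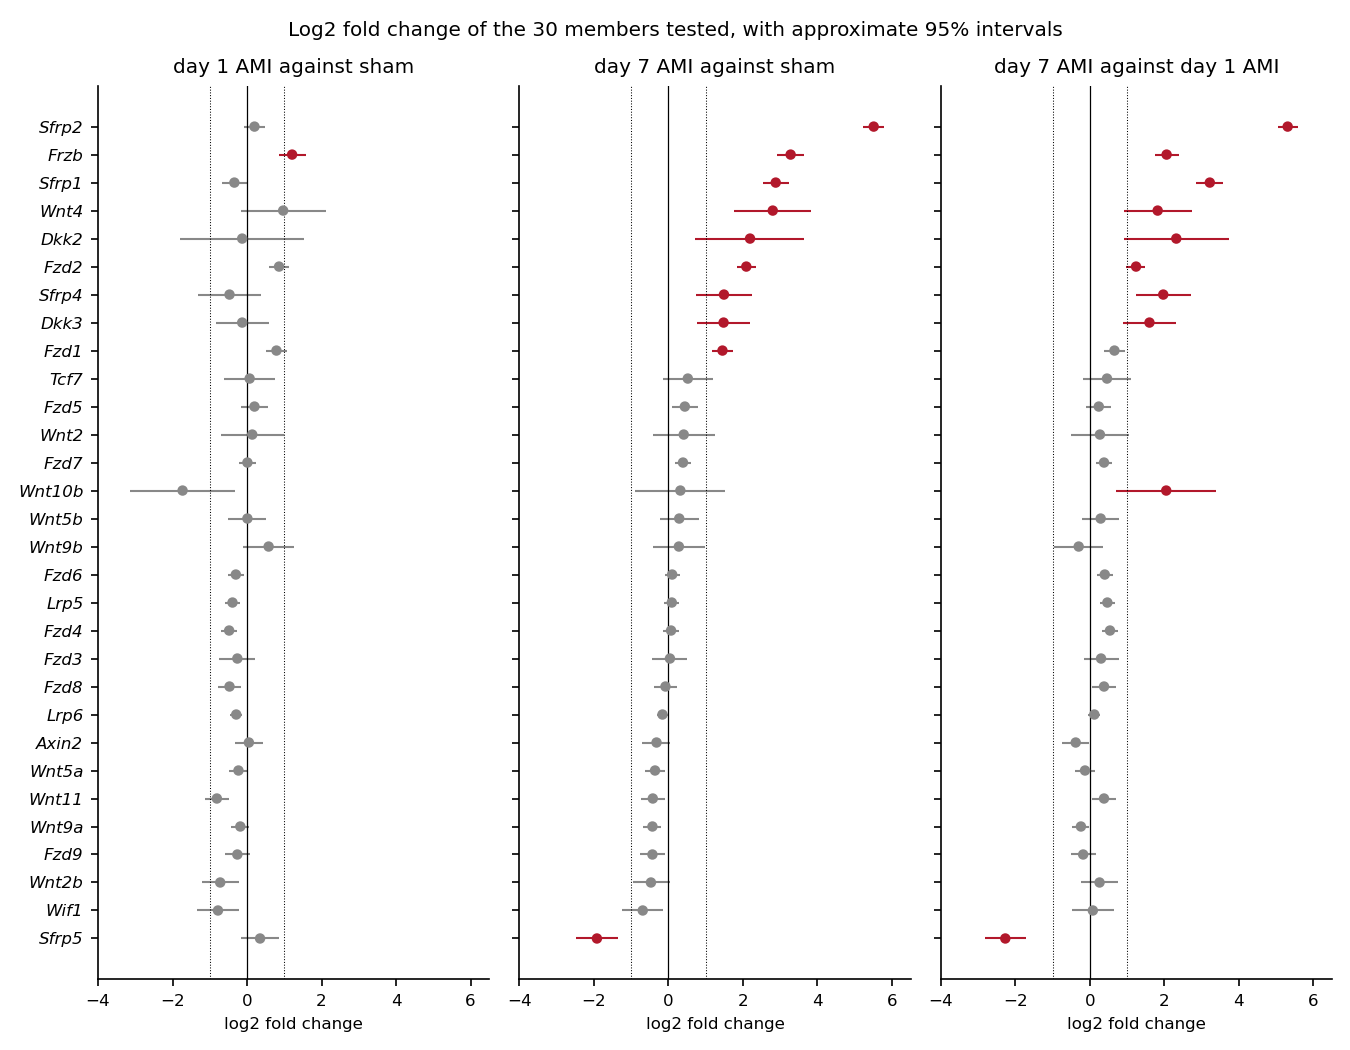
Log2 fold change of each of the 30 members tested (x axis) in the 3 comparisons, with approximate 95% intervals, ordered by the change on day 7 against sham. Red marks members with an FC of 2 or greater and an adjusted p below 0.05, and dotted lines mark a log2 FC of -1 and 1. Sfrp2 is at the top at 5.51 and Sfrp5 at the bottom at -1.92 on day 7 against sham.

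Of the 9 members that rose on day 7 against sham, 6 were secreted antagonists. Of the 8 antagonists tested, 6 rose and 1 fell on day 7 against sham, and Wif1 had a log2 FC of -0.69 that missed the FC threshold. The summed level of all 10 antagonists was 22.4 ± 5.35 TPM in sham (SD, n = 4), 27.7 ± 3.01 TPM at day 1 and 281 ± 31.3 TPM at day 7. All 4 day 7 hearts, from 250 to 313 TPM, lay above all sham and day 1 hearts, which reached at most 31.7 TPM. The ligands summed to 19.7 ± 2.82, 18.3 ± 1.19 and 24.3 ± 2.07 TPM in the same groups, so the antagonists were close to the ligands in sham and far above them at day 7. These sums are in TPM as deposited, without TMM scaling.

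**Figure D2:**
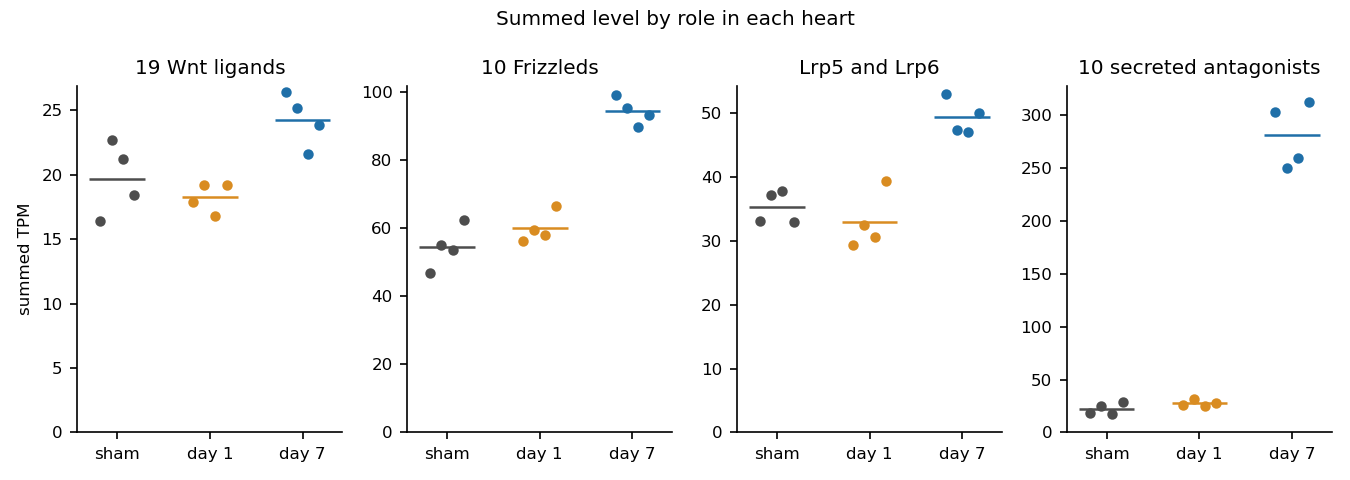
Summed TPM (y axis) of the ligands, Frizzleds, coreceptors and secreted antagonists in each heart, by group (x axis), with the mean as a line. The antagonists went from at most 31.7 TPM in every sham and day 1 heart to at least 250 TPM in every day 7 heart.

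Sfrp2, an sFRP that is also known as a matrix-associated regulator of collagen processing, rose most. In CPM (counts scaled to the TMM-adjusted library size) it measured 3.76, 3.08, 4.37 and 4.97 in the 4 sham hearts. At day 1 AMI it was 4.67, 4.65, 4.29 and 4.92 CPM, and at day 7 it was 194, 151, 185 and 205 CPM. Sham and day 1 hearts overlapped, and every day 7 heart stood far above all of them. The log2 FC was 0.20 on day 1 (SE 0.14, adjusted p = 0.274), 5.51 on day 7 against sham (SE 0.14, adjusted p = 8.69e-12) and 5.31 on day 7 against day 1 (SE 0.14, adjusted p = 9.11e-12). On the day 7 scale this was 45.5-fold over sham. Its share of the summed antagonist TPM went from 12.3 ± 2.55% in sham and 13.5 ± 1.66% at day 1 to 60 ± 3.89% at day 7 (SD, n = 4), which made it the leading antagonist there. The Sfrp2 gene lies on GRCm38 chr3:83766321-83774316, plus strand, and 16.1% of its exon bases are overlapped on the other strand by Gm26771, which had at most 6 counts in any heart.

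**Figure D3:**
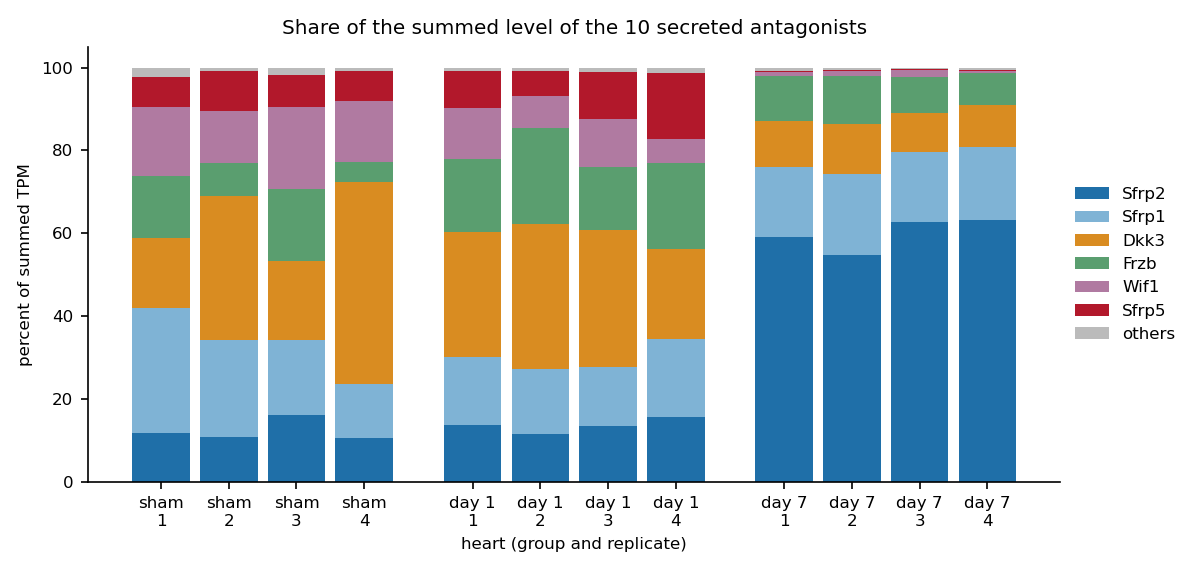
Percent of the summed TPM of the 10 secreted antagonists (y axis) held by each gene in each heart (x axis, group and replicate). Sfrp2 holds the largest share of every day 7 bar, and the Dkk3 share differs widely among the sham bars, from 17 to 48.9%.

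Frzb, also called Sfrp3, was the only tested member to rise at day 1. Its level was 3.7, 4.15, 6.16 and 3.68 CPM in sham, 9.83, 13, 8.24 and 9.99 CPM at day 1, and 51.5, 43.6, 38.6 and 38 CPM at day 7. No heart of any group overlapped another group. The log2 FC was 1.21 on day 1 (SE 0.18, adjusted p = 1.79e-04), 3.28 on day 7 against sham (SE 0.18, adjusted p = 1.54e-08) and 2.06 between the 2 infarct groups (SE 0.17, adjusted p = 6.84e-07). With limma on log2(TPM + 1), a scale that understates changes of low genes, the day 1 value was 0.96 and no longer reached an FC of 2.

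Sfrp1 was the most abundant sFRP of the sham hearts and did not pass the test at day 1. In sham it measured 22.6, 20.9, 11.7 and 14.3 CPM, at day 1 13.5, 15.1, 11 and 15.5 CPM, and at day 7 132, 127, 116 and 137 CPM. The day 7 hearts lay within a narrow band above every other heart, while sham and day 1 overlapped. The log2 FC was -0.34 on day 1 (SE 0.18, adjusted p = 0.138), 2.88 on day 7 against sham (SE 0.18, adjusted p = 3.4e-08) and 3.22 on day 7 against day 1 (SE 0.18, adjusted p = 2.63e-08). Sfrp4 was a low-level sFRP. It had 7, 7, 10 and 5 counts in sham, 6, 10, 10 and 4 at day 1, and 25, 23, 18 and 46 at day 7. It rose on day 7 by a log2 FC of 1.49 against sham (SE 0.38, adjusted p = 0.00368) and 1.97 against day 1 (SE 0.38, adjusted p = 7.61e-04).

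Sfrp5, an sFRP known as a secreted factor of fat tissue, was the only member that fell. It measured 2.19, 3.41, 1.99 and 3.25 CPM in sham, 2.83, 2.3, 3.47 and 5.23 CPM at day 1, and 0.77, 0.695, 0.775 and 0.612 CPM at day 7. The lowest sham or day 1 heart was above the highest day 7 heart. The log2 FC was 0.35 on day 1 (SE 0.26, adjusted p = 0.296), -1.92 on day 7 against sham (SE 0.29, adjusted p = 5.63e-05) and -2.27 on day 7 against day 1 (SE 0.28, adjusted p = 2.57e-05). By limma on log2(TPM + 1) the day 7 value against sham was -0.71, which missed the FC threshold.

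The sequences just before the starts of Sfrp2, which rose most, Sfrp5, which fell, and Fzd1, a Frizzled that rose, are given because these genes share a pathway and moved apart. Each is the 250 bases before the start in RefSeq (GRCm38.p6), 5′ to 3′ on the gene's strand, at chr3:83766071-83766320 (plus), chr19:42202253-42202502 (minus) and chr5:4758217-4758466 (minus). Capitals mark any match on either strand to a TCF/LEF heptamer (CTTTG followed by A or T and again by A or T), to TATAAA or to the GC box GGGCGG, and no matches overlap in these stretches.
Sfrp2: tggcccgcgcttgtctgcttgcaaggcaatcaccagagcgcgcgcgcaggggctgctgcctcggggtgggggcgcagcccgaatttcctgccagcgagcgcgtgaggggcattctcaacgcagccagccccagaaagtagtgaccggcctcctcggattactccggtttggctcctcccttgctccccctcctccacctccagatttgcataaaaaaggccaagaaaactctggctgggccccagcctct
Sfrp5: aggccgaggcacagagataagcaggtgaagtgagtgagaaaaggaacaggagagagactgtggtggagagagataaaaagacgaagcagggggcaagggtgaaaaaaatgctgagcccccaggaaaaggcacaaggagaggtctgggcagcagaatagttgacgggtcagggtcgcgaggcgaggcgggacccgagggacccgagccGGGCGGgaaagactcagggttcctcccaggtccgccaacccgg
Fzd1: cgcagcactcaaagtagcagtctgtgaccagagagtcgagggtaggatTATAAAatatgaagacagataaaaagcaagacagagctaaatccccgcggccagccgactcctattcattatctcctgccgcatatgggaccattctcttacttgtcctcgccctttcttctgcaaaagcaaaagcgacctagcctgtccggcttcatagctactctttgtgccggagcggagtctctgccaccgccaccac
None of the 3 stretches held a TCF/LEF heptamer, which 14.8% of all 32851 RefSeq promoters of this length did. Sfrp2 held no match, Sfrp5 held a GC box from 43 to 38 bases before the start, and Fzd1 held TATAAA from 202 to 197 bases before the start. Among all promoters 32.7% held a GC box and 12.4% TATAAA. The G and C content was 63.6% for Sfrp2, 59.6% for Sfrp5 and 51.2% for Fzd1, with a median of 52.4% over all promoters. Of the 44 members 30 had an entry, and 3 of these, Dkk1, Fzd7 and Wnt11, held a TCF/LEF heptamer. A match of letters describes the sequence and does not show binding.

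Dkk3, a divergent Dickkopf, rose at day 7 and varied widely in sham, with a coefficient of variation of 71.7%. Its level was 9.65, 23.4, 9.26 and 40.9 CPM in sham, 18.5, 25.3, 19.1 and 13.5 CPM at day 1, and 64.2, 59.6, 49.3 and 59.2 CPM at day 7. Sham replicates 2 and 4 were high and replicates 1 and 3 low, and day 7 lay above all of them. In the edgeR fit, the log2 FC was -0.13 on day 1 (SE 0.36, adjusted p = 0.807), 1.48 on day 7 against sham (SE 0.36, adjusted p = 0.0029) and 1.60 on day 7 against day 1 (SE 0.36, adjusted p = 0.00245). Leaving out each heart in turn moved the day 7 value against sham from 1.23 to 2.03, with every adjusted p at most 0.00872.

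The sham hearts with high Dkk3 were also those with high levels of 3 genes of atrial muscle, chosen after these values were seen. Myl7, the atrial regulatory light chain, measured 12.2, 32, 10.7 and 86.8 CPM in sham. Myl4, the atrial essential light chain, measured 18, 49.3, 14.4 and 123 CPM, and Sln, a small regulator of the calcium pump, 6.94, 12.5, 4.12 and 43.8 CPM. In each of the 4 genes sham replicate 4 was highest and sham replicate 2 next. At day 1 the order was not shared. Dkk3 and Myl4 were highest in replicate 2, at 25.3 and 69.8 CPM, and Myl7 and Sln in replicate 1, at 57.6 and 17.4 CPM. Day 1 replicate 4 was lowest for all 4 genes. At day 7, where Dkk3 was at 49.3 CPM or more, Myl7 ran from 10.5 to 34 CPM, beside 10.7 to 86.8 CPM in sham. The part of atrial tissue in the spread of Dkk3 was not tested.

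**Figure D4:**
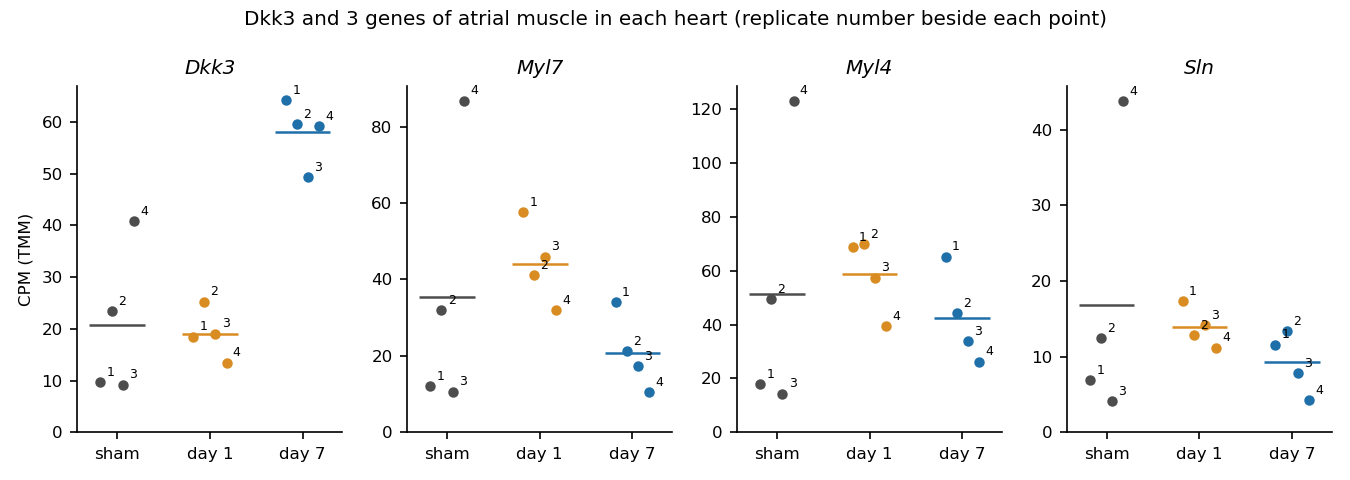
CPM (y axis) of Dkk3 and of Myl7, Myl4 and Sln, genes of atrial muscle, in each heart by group (x axis), with replicate numbers beside the points and the mean as a line. Sham replicate 4 is highest of its group in every panel, and Dkk3 at day 7 stands above all other hearts while Myl7 does not.

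Dkk2, which can act on Lrp6, passed the test at day 7 through a single heart. It had 12, 6, 6 and 4 counts in sham, 6, 6, 10 and 15 at day 1, and 136, 30, 8 and 12 at day 7. Day 7 replicate 1 stood far above the rest, and replicates 3 and 4 were within the range of sham and day 1. On the log2 scale the FC was 2.19 on day 7 against sham (SE 0.75, adjusted p = 0.0207), with an exact two-sided permutation p of 0.171 where 4 hearts against 4 allow at the least 0.0286. Against day 1 the log2 FC was 2.32 (SE 0.72, adjusted p = 0.0161, exact permutation p = 0.143). Without day 7 replicate 1, the log2 FC was 0.88 (adjusted p = 0.197) against sham and 1.01 (adjusted p = 0.143) against day 1. Without sham replicate 2, or without sham replicate 4, the call against sham was lost as well. Dkk1, the classical coreceptor antagonist, had 3 counts in day 1 replicate 4 and 0 in the other hearts. Dkk4 had 0 counts in every heart, which at 3 counts allows 0.0895 to 0.156 CPM, depending on the heart.

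Wif1, Wnt inhibitory factor 1, did not reach the FC threshold. It measured 6.16, 5.5, 6.26 and 7.79 CPM in sham, 4.93, 3.37, 4.38 and 2.36 CPM at day 1, and 3.64, 4.06, 6.16 and 2.07 CPM at day 7. By CPM the day 1 hearts lay below all sham hearts, and day 7 overlapped sham. In TPM, sham (3.02 to 4.23) and day 1 (1.64 to 3.23) overlapped. The fitted log2 FC was -0.78 on day 1 (SE 0.28, adjusted p = 0.0399) and -0.69 on day 7 (SE 0.28, adjusted p = 0.0471).

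**Figure D5:**
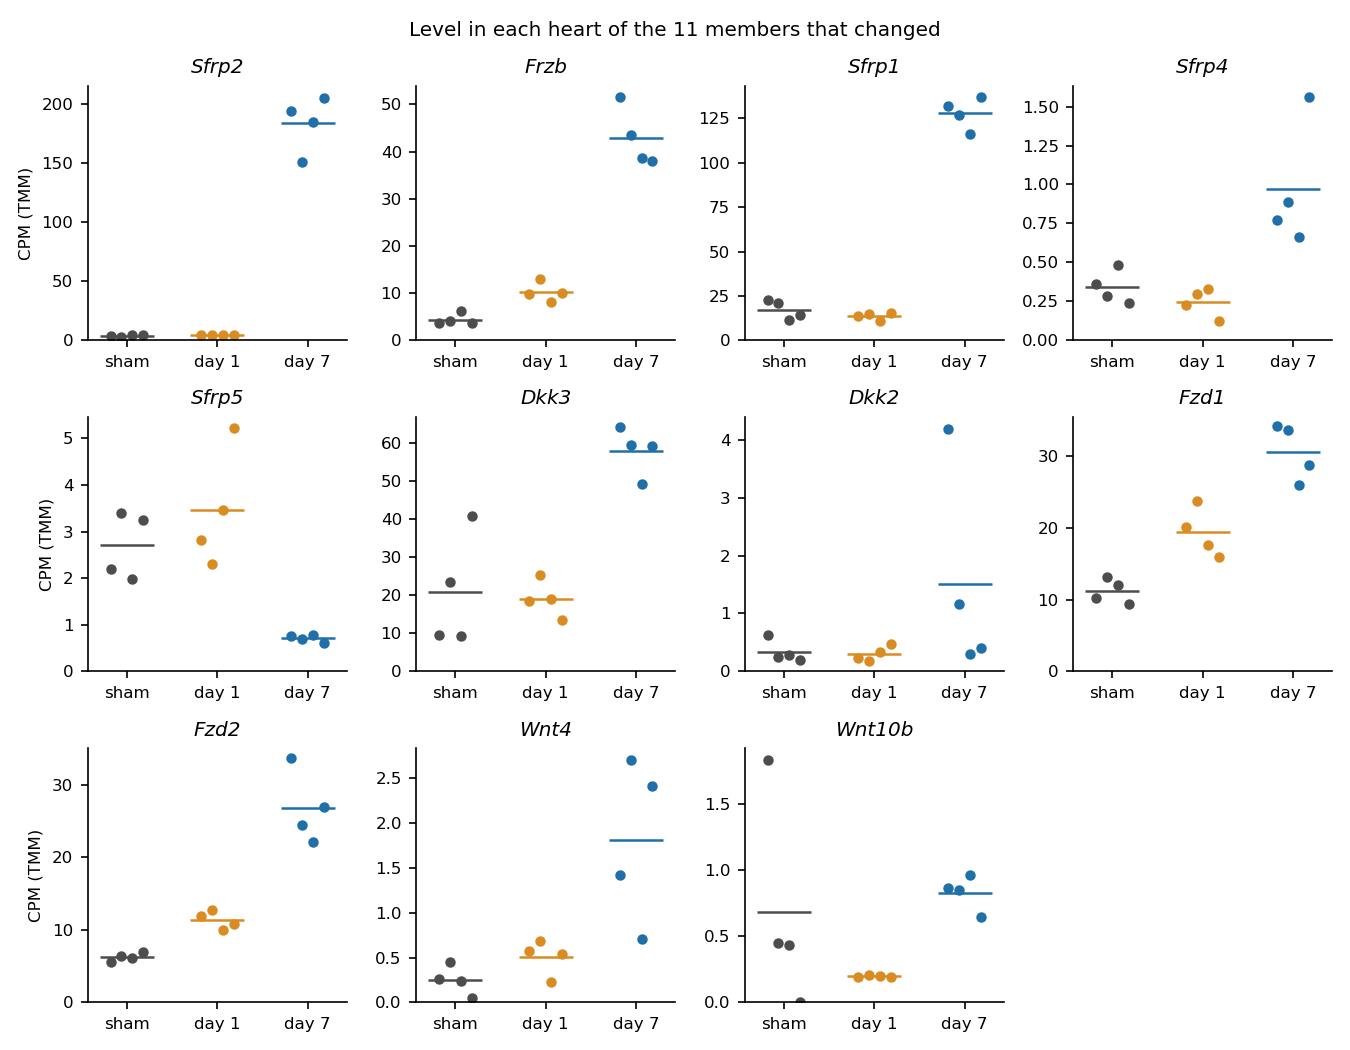
CPM (y axis, TMM-normalized) in each heart (points) with the group mean (line) for the 11 members that passed the test in at least 1 comparison. Day 7 stands apart for Sfrp2, Frzb, Sfrp1, Fzd1 and Fzd2, whereas the Dkk2 mean at day 7 rests on a heart at 4.19 CPM.

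Markers of several cell types moved in the same hearts as the antagonists. Over all genes tested, 15.3% rose and 5.88% fell on day 7 against sham. Of 11 fibroblast markers tested, 7 rose and 1 fell on day 7 against sham, with summed levels of 1113 to 1372 TPM in sham, 1192 to 1682 at day 1 and 3897 to 6228 at day 7. Of 9 myofibroblast markers 8 rose, with sums of 89 to 187, 204 to 366 and 1337 to 2845 TPM. On day 1 the numbers were 3 of 11 and 5 of 9 higher, beside 7.79% of all genes tested. Of 12 macrophage markers 9 rose on day 7 against sham, with sums of 291 to 552 TPM in sham, 689 to 1017 at day 1 and 1224 to 1990 at day 7. All 10 leukocyte markers rose, with sums of 83.1 to 170, 384 to 622 and 478 to 815 TPM. Of 10 markers of epicardium and mesothelium 6 rose, with sums of 10.7 to 22.3, 38.2 to 60.9 and 38.7 to 54.6 TPM. Of 10 T cell markers tested 8 rose, with sums given beside Tcf7, and of 11 cardiomyocyte markers 6 fell and 1 rose. Other lists did not rise in this way. Of 9 neutrophil markers 1 rose and 2 fell, with sums of 14.6 to 264, 370 to 837 and 17 to 194 TPM. Of 9 mural cell markers 1 rose and 1 fell, of 10 endothelial markers 0 rose, and of 7 erythroid markers tested 4 fell. Sham replicate 2 had an erythroid sum of 15208 TPM, beside at most 3642 TPM in the other sham hearts. No marker of the fibroblast, myofibroblast, macrophage, leukocyte or epicardial lists was at 0 in all hearts of a group. In whole-heart RNA, fewer or more cells of a type and less or more RNA per cell cannot be told apart, and the part of any of these cells in the rise of the antagonists was not tested.

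Most of the ligands were scarce. Of 19 Wnt genes, 9 were tested and 10 had too few counts, and Wnt3 and Wnt8a had 0 counts in every heart. By TPM, which scales by the transcript length assigned to a gene, Wnt11 had the highest mean in every group. It was at 8.39 ± 2.36 TPM in sham, 5.86 ± 0.599 at day 1 and 8.54 ± 1.08 at day 7 (SD, n = 4). Wnt5a (3.99 ± 0.886 TPM), Wnt9a (3.15 ± 0.487 TPM) and Wnt5b (2.09 ± 0.898 TPM) followed in sham, and these neighbours overlapped within their spread. The sham ranges of Wnt11 (4.92 to 10.1 TPM) and Wnt5a (2.97 to 5.11 TPM) overlapped as well. In CPM, which is not scaled by length, Wnt5a (15.9) and Wnt9a (8.86) stood above Wnt11 (7.5) in sham.

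Wnt4, a ligand known from kidney and gonad development that can act with or without β-catenin, was the only tested ligand to rise against sham. It had 5, 11, 5 and 1 counts in sham, 15, 23, 7 and 17 at day 1, and 46, 70, 19 and 71 at day 7. Day 7 CPM lay above all other hearts, though replicate 3 came close to day 1. In the edgeR fit, the log2 FC was 0.97 on day 1 (SE 0.58, adjusted p = 0.193), 2.80 on day 7 against sham (SE 0.53, adjusted p = 4.1e-04) and 1.82 on day 7 against day 1 (SE 0.46, adjusted p = 0.00522). Even at day 7 its level was 0.738 ± 0.383 TPM.

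Wnt10b, a ligand of the β-catenin branch, passed the test on day 7 against day 1 and not against sham. It had 35, 11, 9 and 0 counts in sham, 5, 7, 6 and 6 at day 1, and 28, 22, 26 and 19 at day 7. Sham spanned the whole range of the other groups, whereas day 7 lay above day 1 in every heart. On the log2 scale the FC was -1.73 on day 1 against sham (SE 0.71, adjusted p = 0.0652), 0.32 on day 7 against sham (SE 0.61, adjusted p = 0.678) and 2.05 on day 7 against day 1 (SE 0.68, adjusted p = 0.0235). This last call was lost without day 1 replicate 1, 3 or 4, with a highest adjusted p of 0.0528. Without sham replicate 4, which had no count, Wnt10b fell on day 1 by 2.15 on the log2 scale (adjusted p = 0.0055). Without sham replicate 1, the log2 FC on day 7 against sham was 1.45 (adjusted p = 0.0385).

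None of the more abundant ligands reached an FC of 2 in any comparison. Wnt11, a ligand of the β-catenin-independent branch with a known role in heart development, measured 6, 8.21, 6.64 and 9.13 CPM in sham, 3.94, 4.12, 4.15 and 4.95 CPM at day 1, and 6.63, 6.1, 5.13 and 4.52 CPM at day 7. Every day 1 heart was below every sham heart by CPM, whereas sham (4.92 to 10.1) and day 1 (5.31 to 6.42) overlapped in TPM. The fitted log2 FC was -0.81 on day 1 (SE 0.17, adjusted p = 0.00167), short of the FC threshold, and -0.42 on day 7 (SE 0.16, adjusted p = 0.0379). Wnt5a, the main β-catenin-independent ligand, had a log2 FC of -0.23 (95% interval -0.49 to 0.03) on day 1 and -0.36 (-0.62 to -0.10) on day 7 against sham. For Wnt9a, a ligand known from valve and joint development, the values were -0.18 (-0.42 to 0.05) and -0.43 (-0.67 to -0.19). On day 7 against sham both were lower at the p threshold by edgeR (adjusted p = 0.031 for Wnt5a and 0.0077 for Wnt9a). Wnt5b, a close relative of Wnt5a, was at 0.01 (-0.51 to 0.52) and 0.29 (-0.22 to 0.81).

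Among the other tested ligands, Wnt2b had a log2 FC of -0.72 on day 1 (SE 0.26, adjusted p = 0.0344), while Wnt2 and Wnt9b did not pass in any comparison. Wnt16 was too scarce to be tested and had 0, 6, 0 and 1 counts in sham, 3, 1, 3 and 0 at day 1, and 30, 8, 9 and 7 at day 7. Its day 7 counts were the highest of the series. Wnt7a had 0 counts in all sham hearts and between 0 and 13 in the infarcted hearts. The count filter left it out of the main test, whereas DESeq2 called it higher on day 1 against sham. Wnt6 had 3 to 19 counts per heart, and Wnt1, Wnt3a, Wnt7b, Wnt8b and Wnt10a had at most 5. Wnt genes often stand in pairs in the genome, and the partners differed in level: Wnt9a was measured in every heart while Wnt3a, 16.2 kb away on chromosome 11, had at most 2 counts. Likewise Wnt10b was detected in 11 of 12 hearts and Wnt1, 11.7 kb away on chromosome 15, had at most 4 counts.

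Among the receptors, Fzd1 and Fzd2 rose. Fzd1 measured 10.2, 13.1, 12.1 and 9.42 CPM in sham, 20.1, 23.8, 17.6 and 16 CPM at day 1, and 34.2, 33.6, 25.9 and 28.7 CPM at day 7. Its log2 FC was 0.79 on day 1 (SE 0.14, adjusted p = 7.18e-04), 1.45 on day 7 against sham (SE 0.14, adjusted p = 1.43e-06) and 0.66 between day 7 and day 1 (SE 0.14, adjusted p = 0.00139). The 3 groups did not overlap and stood in the order sham, day 1, day 7, although only the day 7 value against sham passed the FC threshold.

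Fzd2 measured 5.58, 6.37, 6.16 and 6.98 CPM in sham, 11.9, 12.8, 10 and 10.8 CPM at day 1, and 33.7, 24.5, 22.1 and 27 CPM at day 7. Its groups stood apart in the same order. In the edgeR fit, the log2 FC was 0.86 on day 1 (SE 0.14, adjusted p = 2.86e-04), 2.09 on day 7 against sham (SE 0.14, adjusted p = 5e-08) and 1.24 on day 7 against day 1 (SE 0.13, adjusted p = 5.81e-06). The day 1 values of Fzd1 and Fzd2 sat close to the FC threshold, and by library totals alone both passed it at day 1.

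By TPM, Fzd6 and Fzd4 were the leading Frizzleds in each group. In CPM, which is not scaled by length, Fzd4 stood at 92.5 and Fzd6 at 30.5 in sham. The order of these genes and their shares thus depend on the transcript lengths used for TPM. Fzd6, which is known from hair and tissue polarity, was at 23.5 ± 2.66, 23.3 ± 3.69 and 29.2 ± 2.25 TPM in sham, day 1 and day 7. Fzd4, a receptor of vascular endothelium, was at 15.4 ± 2.61, 13.9 ± 1.28 and 23.9 ± 1.52 TPM. Fzd1 and Fzd2, at 3.1 ± 0.652 and 2 ± 0.255 TPM in sham, reached 12.4 ± 1.72 and 12.6 ± 2.56 TPM at day 7, respectively. Of the summed Frizzled TPM, the share of Fzd1 went from 5.75 ± 1.29% in sham to 13.1 ± 1.34% at day 7. That of Fzd2 went from 3.67 ± 0.239% to 13.3 ± 2.22%. The share of Fzd6 was 43.2 ± 1% in sham and 31 ± 2.76% at day 7.

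In the count fit, Fzd4 had a log2 FC of -0.48 on day 1 (SE 0.11, adjusted p = 0.00377) and 0.07 on day 7 against sham (SE 0.11, adjusted p = 0.616). Its day 1 hearts, at 62.4, 64.8, 66.4 and 72.5 CPM, lay below all sham hearts, which ran from 79.3 to 118 CPM. Fzd6 (log2 FC -0.30) and Fzd8, a close relative of Fzd5 (-0.47), also passed the p threshold on day 1 with changes under 2-fold. On day 7 against sham, Fzd5 (0.44), Fzd7, which belongs with Fzd1 and Fzd2 by sequence (0.39), and Fzd9 (-0.43) passed it with changes under 2-fold. Fzd3 passed in no comparison and Fzd10 had at most 6 counts.

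The endothelial marker list, set beside Fzd4, had a median log2 FC of -0.25 on day 1 and 0.39 on day 7 against sham over 10 genes, with summed levels of 481 to 714 TPM in sham, 646 to 708 at day 1 and 1011 to 1248 at day 7. The TMM factors were 0.781 to 0.917 in sham and 1.1 to 1.17 at day 7. With library totals alone the median log2 FC of all genes was 0.26 on day 1, 0.43 on day 7 against sham and 0.15 between the infarct days, so TPM and unscaled values of small changes such as that of Fzd4 lie above those of the TMM fit.

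The coreceptors Lrp5 and Lrp6 did not reach an FC of 2 in any comparison. Lrp5 measured 81.3, 92.7, 89.4 and 85.9 CPM in sham, 58.2, 66.6, 68.1 and 74.5 CPM at day 1, and 109, 78.8, 92 and 90.9 CPM at day 7. By CPM, day 1 lay below sham and day 7 in every heart. In TPM, sham (17.1 to 21.8) and day 1 (15.8 to 21.2) overlapped. On the log2 scale the FC was -0.39 on day 1 (SE 0.10, adjusted p = 0.00738), 0.09 on day 7 against sham (SE 0.10, adjusted p = 0.478) and 0.47 on day 7 against day 1 (SE 0.10, adjusted p = 0.00162). Lrp6 had a log2 FC of -0.29 on day 1 (SE 0.08, adjusted p = 0.0119) and -0.16 on day 7 against sham (SE 0.08, adjusted p = 0.0968), and its day 7 hearts ran only from 73.9 to 76.5 CPM.

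Axin2, a feedback inhibitor that is widely read as a target of β-catenin, passed in no comparison. It measured 3.7, 6.69, 5.09 and 4.45 CPM in sham, 5.01, 4.45, 5.56 and 5.74 CPM at day 1, and 3.79, 4.52, 4.65 and 3.06 CPM at day 7. All 3 groups overlapped. The fitted log2 FC was 0.05 on day 1 (95% interval -0.32 to 0.42) and -0.32 on day 7 against sham (-0.70 to 0.05), and an FC of 2 lay outside both intervals. By limma on log2(TPM + 0.1) the day 7 value was 0.59, which did not pass, so the direction differed between these fits, which differ in unit, scaling and test. On the genome, 3.8% of its exon bases are overlapped on the other strand.

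Tcf7, a TCF factor that is also a T cell gene, had a log2 FC of 0.07 on day 1 (SE 0.35, adjusted p = 0.9) and 0.52 on day 7 (SE 0.35, adjusted p = 0.207). It had 7, 19, 15 and 20 counts in sham and 29, 26, 36 and 26 at day 7, so day 7 counts were higher in each heart, although CPM overlapped. Lef1, its relative, was not tested and had 1 to 11 counts. Of the 10 T cell markers tested, 8 rose on day 7 against sham, with sums of 3.81 to 5.29 TPM in sham, 5.37 to 15.2 at day 1 and 13 to 21.1 at day 7. The part of T cells in the Tcf7 value was not tested.

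The rest of the pathway was read from 6 lists. Of 11 tested genes of Wnt secretion and extracellular modification, 5 rose on day 7 against sham (median log2 FC 0.86), beside 15.3% of all genes tested. The largest was Cthrc1, a secreted Wnt cofactor of activated fibroblasts, at 0.135 CPM on average in sham, 2.62 at day 1 and 81.2 at day 7. It is also one of the myofibroblast markers above. Tpbg, a surface inhibitor of the coreceptor, rose on day 1 (log2 FC 1.86) and on day 7 (2.94), and the glypican Gpc6 rose on day 7 (1.80).

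Of 9 other receptors and surface regulators, 2 (22.2%) rose and 1 (11.1%) fell on day 7 against sham. Over all genes tested 15.3% rose and 5.88% fell in this comparison. Ror2, a Wnt5a receptor, rose by a log2 FC of 1.73 (SE 0.28, adjusted p = 1.02e-04) and Ptk7, a pseudokinase of the polarity branch, by 1.95 (SE 0.31, adjusted p = 9.46e-05), while Lgr6, an R-spondin receptor, had a log2 FC of -1.09 (SE 0.22, adjusted p = 7.65e-04). Of 11 genes of planar cell polarity, 5 higher and 2 lower passed the p threshold on day 7 against sham with changes under 2-fold, beside 15.6% higher and 22.6% lower of all genes tested. Celsr2, a polarity cadherin, fell by 1.15 on the log2 scale on day 1. Of 21 cytoplasmic genes, 2 (9.52%) rose on day 7 against sham, Nkd2 (3.08) and Dact3 (1.16), both of which bind Dishevelled. Of 18 nuclear effectors, 1 (5.56%) fell in the same comparison, Pygo1 (-1.10), with a median log2 FC of 0.05.

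Of 13 tested genes on a list of β-catenin targets known from other tissues, 4 rose and 1 fell on day 1 against sham. On day 7 against sham 6 rose and 1 fell (median log2 FC 0.94). Over all genes tested 7.79% rose and 2.98% fell on day 1, and 15.3% and 5.88% on day 7. The largest on day 7 were Wisp1 (log2 FC 3.46) and Wisp2 (log2 FC 3.31), secreted matricellular proteins. Sox9, a transcription factor of cartilage and scar, followed with a smaller change (5.67-fold on the linear scale). Tnfrsf19, a receptor of the tumor necrosis factor family, fell by 1.51 on the log2 scale on day 1 and by 1.42 on day 7. The other 8 of the 21 listed targets had too few counts. These targets answer to other signals as well, and their source was not tested.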

How the data were processed

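Total RNA from 12 mouse hearts (4 sham, 4 day 1 AMI, 4 day 7 AMI) was sequenced by the authors as 150 bp paired-end libraries. Per the study's methods and the labels, reads were checked with FastQC, trimmed with Cutadapt, aligned with STAR 2.4.0j to the mouse genome (Ensembl GRCm38 annotation; the submitters' processing notes name mm10 and CASAVA 1.8), and quantified with RSEM. The authors deposited a table of raw counts per gene and a table of TPM (rounded), with no samples pooled. Which tool gave the raw counts, and whether strand was used, is not given in the sources used here. Without strand, reads from a gene and an antisense partner cannot be told apart, and 8 members have one.

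Genes were kept by filterByExpr (15306), scaled by TMM and tested with edgeR 4.0.16 (quasi-likelihood, one fit over 3 groups) in R 4.3.3. CPM use TMM-scaled totals. Intervals are the estimate ± 1.96 SE, which is approximate. Exact permutation tests used log2 CPM. In simulated counts on 15130 genes for day 1 against sham, the test recovered 95 of 100 genes changed by a log2 FC of 1.5 and 100 of 100 changed by 2.5. The changed genes were drawn from those with a mean above 1 CPM. The simulation therefore does not show how well changes of scarcer members, or smaller changes, are found. Alternatives were RLE factors, library totals, no filter, DESeq2, limma on log2(TPM + 1) and log2(TPM + 0.1), the compared groups only, a replicate block, no FC minimum, and each heart left out. Libraries of a group differed by more than sampling noise. The labels do not tie hearts to litters, cages or surgery days, so p-values measure only the spread between these samples. The members and the gene lists were chosen with earlier results of these data known. Members called, or at 1 TPM or more in any group, were given with values, and of each list the called genes with the largest change, at most 3. Sequences came from RefSeq.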

Additional observations from a re-analysis of the deposited data

Results flagged for a closer look

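Among 90 groups of 4 hearts checked, a heart stood apart from the other 3 of its group for 3 values. Chance alone flags about 1 in 20 such groups, so 3 of 90 is no more than chance gives. Wnt2 was at 0.507 CPM in day 1 AMI replicate 2, against 0.294 to 0.315 CPM in the others, and at 0.185 CPM in day 7 AMI replicate 1, against 0.51 to 0.541 CPM. Wnt2b was at 0.841 CPM in day 1 AMI replicate 1, against 1.22 to 1.26 CPM in the others. All are low levels, where few reads set the value.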

How the results depend on the processing

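Over 1832 alternatives for the 30 tested members, 1816 gave the same outcome, which for most was to stay not called. Of the rest, 9 lost a call and 7 gained one. None turned a called direction, while 65 values that were not called changed sign. On day 1 against sham, the count of higher members was 3 by library totals alone, 3 with no fold change minimum, 3 by limma on log2(TPM + 0.1) and 0 by limma on log2(TPM + 1). It was 2 without the filter on low counts and 2 by DESeq2 in either form, where Wnt7a was added. Of 26544 genes, 1328 were higher on day 1 without the filter and 1296 by DESeq2 on 12 libraries. The count of lower members on day 1 was 1 by DESeq2 on 12 libraries (Wnt10b), 8 with no fold change minimum, and 0 to 1 on leaving out each heart. On day 7 against sham, the count of lower members was 0 by limma on log2(TPM + 1) and 6 with no fold change minimum. On day 7 against day 1, the count of higher members was 5 by either limma setting, whose TPM filter left Dkk2, Sfrp4, Wnt4 and Wnt10b out of the test, and 14 with no fold change minimum. With no such minimum, 3360 of 15306 genes were higher and 3043 lower on day 1 against sham. In that setting 4353 were lower on day 7 against sham and 3701 higher on day 7 against day 1. By library totals alone 1764 of 15306 genes were higher on day 1. By limma, 957 (TPM + 1) and 1576 (TPM + 0.1) of 13716 genes were higher on day 1, and 884 and 1412 on day 7 against day 1. No pairing of hearts by replicate number was evident. The correlation of deviations ran from -0.244 to 0.229 over 12 same-numbered pairs, with 4 over 0.1 and 1 library best with its own number. Such correlations cannot exclude a shared origin of some same-numbered hearts. The replicate block gave 1 higher and 0 lower members on day 1 against sham, and 9 higher and 1 lower in each day 7 comparison. Depth limits the low members: Dkk2, Sfrp4, Wnt4 and Wnt10b rest on low counts per heart, and members under 3 counts per heart were not detectable at this depth.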
